A study of Mus musculus with 6 samples.

Results

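The microglia and macrophage genes described here are 10 genes: Aif1, Cx3cr1, Csf1r, Itgam, Ptprc, Tyrobp, C1qa, C1qb, C1qc and Trem2. They were chosen by name, as every probe that the array annotation assigns to one of these symbols, which gave 16 probes of 55681 and 10 of 34836 gene names. None of the 16 probes differed between the sorted fractions by the limits of the study's methods. The signals of most of the 10 genes differed instead among the 3 arrays of the A+/G+ fraction, where they stood high and low on the same arrays.

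The study compared precursor cells of the neonatal mouse cerebellum, separated with antibody-coated magnetic beads into cells that carry both ACSA-2, an epitope of the sodium pump subunit Atp1b2, and GLAST, the glutamate transporter Slc1a3 (A+/G+), and cells that carry GLAST without ACSA-2 (A-/G+). Each fraction was measured in 3 biological replicates, 1 array each. All 6 samples were wild-type cerebellum with no transgene, and the labels give the strain CD1 and an age of P1 to P3, whereas the study's methods give P0/P1 for the arrays and a C57BL/6 background for wild-type mice. Cerebella of either sex were pooled, and a sample held 50000 cells. By the study's flow cytometry the beads enriched each population without making either fraction pure. The study counted rare cells with ACSA-2 but no GLAST as A+/G+. The A+/G+ cells were taken in 1 step with beads against ACSA-2. For the A-/G+ cells, a mixture of beads against L1CAM, ACSA-2, PSA-NCAM, Ter119 and CD45 was first used to remove cells, after which GLAST-positive cells were selected, and CD45 is the protein made from Ptprc, so the product of 1 of the 10 genes was itself a target of the sort in this fraction. The methods name no CD45 step for A+/G+. The comparison asks in what the GLAST-positive populations differ.

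Microglia are the resident macrophages of the brain. They enter it during embryonic life, depend on signals through the CSF1 receptor, and clear dying cells and surplus synapses in the developing cerebellum. The 10 genes cover the receptors by which these cells are maintained and sense neurons (Csf1r, Cx3cr1), a receptor for lipids and cell debris with its signalling adaptor (Trem2, Tyrobp), the 3 chains of the complement protein C1q (C1qa, C1qb, C1qc), and proteins found across myeloid or blood cells (Aif1, Itgam, Ptprc). None of them is a marker of astroglia or of neuronal precursors.

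A signal on these arrays is read through an oligonucleotide of 60 bases per probe, and the probes decide what can be said of a gene. The probes of C1qa, C1qb and Tyrobp are shown because these genes carried the pattern described below, written 5′ to 3′ as the array files give them.
C1qa: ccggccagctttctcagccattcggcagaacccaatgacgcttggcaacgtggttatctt
C1qb: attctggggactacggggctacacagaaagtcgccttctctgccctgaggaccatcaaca
Tyrobp: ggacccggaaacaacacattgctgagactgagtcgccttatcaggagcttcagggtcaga
On mm9, the build of the array annotation, the 3 C1q probes lay on chromosome 4 at 136452409 to 136452468 (C1qa), 136436578 to 136436637 (C1qb) and 136445766 to 136445825 (C1qc), within 15891 bases of each other. The Tyrobp probe was placed on chromosome 7 at 31200651 to 31202378, a span of 1728 bases for 60 bases of sequence, so it crosses at least 1 intron. The brightest Itgam probe, at 135261755 to 135261814 of the same chromosome, opens with a simple repeat, and its first 30 bases are shown with the uninterrupted run of 10 CA units in capitals.
Itgam: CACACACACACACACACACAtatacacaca
Runs of at least 8 CA or TG units were found in 110 of all 55681 probes (0.198%). On all 6 arrays, 105 of these 110 (95.5%) were well above background, against 32.1% of the other probes.

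The bases upstream of the genes were read from RefSeq on GRCm38.p6, another build than that of the probes, and 7 of the 10 genes had an entry. The 6-base word GAGGAA, the core of the sequence bound by the myeloid transcription factor PU.1 and by other ETS factors, was searched on both strands in the 250 bases before each start. It was present for 6 of the 7 genes (Aif1, C1qb, C1qc, Itgam, Ptprc and Trem2, but not Cx3cr1), against 25.9% of 27025 genes in the table. The longer word GAGGAAGT, which contains the first, was found only for C1qc of the 7 genes and for 2.79% of all genes. The windows of C1qb, C1qc and Trem2 are shown because the signals of these genes were high and low on the same A+/G+ arrays. Capitals mark GAGGAA or its reverse complement, and all 3 sequences run towards the start of the gene on its own strand.
C1qb, chr4:136886201-136886450, minus strand: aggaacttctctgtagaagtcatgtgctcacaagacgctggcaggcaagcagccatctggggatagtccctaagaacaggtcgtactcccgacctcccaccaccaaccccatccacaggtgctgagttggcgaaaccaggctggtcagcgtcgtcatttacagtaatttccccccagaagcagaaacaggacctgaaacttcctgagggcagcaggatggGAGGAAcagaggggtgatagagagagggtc
C1qc, chr4:136892915-136893164, minus strand: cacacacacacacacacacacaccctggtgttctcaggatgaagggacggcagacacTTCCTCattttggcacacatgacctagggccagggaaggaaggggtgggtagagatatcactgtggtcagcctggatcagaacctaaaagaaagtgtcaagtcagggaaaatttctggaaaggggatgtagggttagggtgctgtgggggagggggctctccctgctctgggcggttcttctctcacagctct
Trem2, chr17:48346151-48346400, plus strand: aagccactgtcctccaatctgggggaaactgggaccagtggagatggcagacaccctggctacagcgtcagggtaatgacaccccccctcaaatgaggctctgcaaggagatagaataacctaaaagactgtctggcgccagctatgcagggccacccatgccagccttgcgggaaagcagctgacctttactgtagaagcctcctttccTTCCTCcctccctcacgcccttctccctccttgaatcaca
The word began 30 bases before the start in C1qb, 40 in Trem2 and 193 in C1qc. A match is a description of letters and not a bound site. The gene of PU.1, Spi1, had 1 probe, and none of the 6 arrays had it well above background (1.94 to 2.00 on the log2 scale).

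Values are log2 of the quantile normalized signal, and a probe is called well above background on an array by the flag of the scanner software. Before normalization the A+/G+ arrays were equally bright, with a 75th percentile intensity of 332 to 334.4, while the A-/G+ arrays were dimmer, at 56.6, 113 and 251 for replicates 1, 2 and 3. The number of probes well above background was 26469 to 26654 on the A+/G+ arrays and 18336, 21412 and 24730 on the A-/G+ arrays. Of the 16 member probes, 13, 10 and 7 were well above background on A+/G+ replicates 1, 2 and 3, and 4, 8 and 13 on A-/G+ replicates 1, 2 and 3. The lowest value of a probe well above background was 3.52 to 3.61 on the A+/G+ arrays but 5.64 on A-/G+ replicate 1, so a low value on that array is close to a limit of measurement. The A+/G+ arrays lay on 1 slide and the A-/G+ arrays on another, so slide and fraction cannot be told apart. Of the sorted antigens, Atp1b2 was higher in the A+/G+ cells by 2.16 ± 0.18 (SE, adjusted p = 0.00725, limma), and Slc1a3 was well above background on all 6 arrays (13.26 to 14.92). Every A-/G+ array had Slc1a3 above every A+/G+ array, as for 24.3% of all probes. Its difference was -1.19 (adjusted p = 0.0733, limma).

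Csf1r encodes the receptor on which microglia depend for survival, and its brightest probe was well above background on all 6 arrays. It read 8.87, 7.70 and 6.22 on A+/G+ replicates 1, 2 and 3, and 8.81, 8.33 and 8.48 on A-/G+ replicates 1, 2 and 3. The A-/G+ arrays lay within 0.48 of each other while the A+/G+ arrays spanned 2.65, so that 1 A+/G+ array was above all of A-/G+ and the remaining A+/G+ arrays below. The difference, A+/G+ minus A-/G+, was -0.94 ± 0.70 (SE, 95% confidence interval -2.76 to 0.87, adjusted p = 0.516, limma). A second Csf1r probe, also well above background on all 6 arrays, read 5.66, 4.93 and 5.15 in A+/G+ and 6.56, 6.36 and 5.26 in A-/G+, a difference of -0.82 (adjusted p = 0.340, limma). The span of the A+/G+ arrays on this probe was 0.74, so the probes of Csf1r disagreed on how far those arrays lay apart. The remaining probe was above background by the flag only on A+/G+ replicate 1 and A-/G+ replicate 3, with a difference of -1.16 (adjusted p = 0.229, limma). The Csf1r probes lay on chromosome 18 of mm9, the brightest at 61290725 to 61290784.

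Cx3cr1 encodes the receptor for the neuronal chemokine fractalkine. Its brightest probe, on chromosome 9 at 119957811 to 119957870, read 7.39, 6.24 and 3.94 on A+/G+ replicates 1, 2 and 3 and 6.91, 5.84 and 6.92 on A-/G+ replicates 1, 2 and 3, well above background on all 6. The highest and the lowest of the 6 values were both A+/G+ arrays, and the fractions overlapped. The difference was -0.70 ± 0.97 (SE, 95% confidence interval -3.20 to 1.80, adjusted p = 0.678, limma). A second probe shares 55 of its 60 bases with the first and is no independent reading. It gave 7.28, 5.72 and 3.98 in A+/G+ and 5.34, 5.53 and 6.68 in A-/G+. The last probe, at 119959018 to 119959077, shares no bases with them and fell in the same order in A+/G+, at 4.55, 2.81 and 2.01, although only replicate 1 was well above background there.

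Trem2, the receptor for lipids and apoptotic cells, read 5.44, 4.48 and 2.21 in A+/G+ and 5.41, 5.56 and 5.90 in A-/G+. It was well above background on A+/G+ replicates 1 and 2 and on A-/G+ replicates 2 and 3. Its difference of -1.58 ± 0.87 was the largest in size among the 16 probes, and its 95% confidence interval ran from -3.83 to 0.67 (SE, adjusted p = 0.379, limma). Tyrobp, the adaptor through which TREM2 signals, read 6.77, 5.23 and 4.03 in A+/G+ and 4.43, 6.15 and 6.52 in A-/G+, and was well above background on all arrays but A-/G+ replicate 1. Its fractions overlapped throughout, with a difference of -0.36 ± 0.92 (SE, 95% confidence interval -2.73 to 2.02, adjusted p = 0.832, limma).

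C1q starts the classical complement pathway, and brain C1q is made mostly by microglia. C1qa read 5.55, 4.10 and 2.49 in A+/G+ and 1.87, 4.86 and 5.88 in A-/G+. C1qb read 4.71, 3.79 and 3.12 in A+/G+ and 4.21, 4.78 and 4.93 in A-/G+. C1qc read 5.74, 4.22 and 2.24 in A+/G+ and 3.69, 4.81 and 5.61 in A-/G+. All 3 genes were highest in A+/G+ on replicate 1 and lowest on replicate 3, and all 3 were lowest in A-/G+ on replicate 1, the dimmest array. The differences were -0.15 for C1qa, -0.77 for C1qb and -0.64 for C1qc (adjusted p of 0.957, 0.421 and 0.725, limma). The interval for C1qa, -3.62 to 3.31, was the widest of the 16. Among the A-/G+ arrays only replicate 3 gave a C1q signal well above background, for each of the 3 genes.

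C1qc was printed in 10 spots on each array, which gives its error within an array. The SD among spots was 0.19, 0.32 and 0.28 on the 3 A+/G+ arrays. The spots ran from 5.45 to 6.004 on replicate 1, from 3.80 to 4.59 on replicate 2 and from 1.92 to 2.72 on replicate 3, so the spots of the 3 arrays did not overlap. On A-/G+ replicates 1 and 2 the SD among spots was 0.77 and 0.67, and on the brighter replicate 3 it was 0.17.

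Aif1, a calcium-binding protein of microglia known as IBA1, had the largest difference towards A+/G+. It read 6.14, 5.37 and 4.93 in A+/G+ and 1.88, 5.10 and 4.92 in A-/G+. The low mean of A-/G+ came from replicate 1, where the probe was not well above background, and A-/G+ replicate 2 lay above A+/G+ replicate 3. The difference was 1.51 ± 0.99 (SE, 95% confidence interval -1.05 to 4.08, adjusted p = 0.463, limma), and it was 0.47 without A-/G+ replicate 1.

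Ptprc, whose protein CD45 was used to remove cells from A-/G+, did not stand well above background on a single array. Its 1 probe read 2.53, 3.02 and 2.92 in A+/G+ and 1.88, 1.84 and 2.51 in A-/G+. The lowest A+/G+ value was above the highest A-/G+ value by a small margin, which held for 12.7% of all probes. The difference was 0.74 ± 0.24 (SE, 95% confidence interval 0.12 to 1.37, adjusted p = 0.147, limma). With values below the lowest probe that was well above background on each array, the order says nothing on the amount of Ptprc RNA. With the arrays scaled to a common 75th percentile instead, the difference was -0.48.

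Itgam, which encodes the alpha chain of complement receptor 3, had probes that disagreed. The brightest, whose sequence opens with the CA repeat, was well above background on all 6 arrays, at 10.40, 10.03 and 10.05 in A+/G+ and 11.66, 10.16 and 9.88 in A-/G+ (difference -0.40 ± 0.51, SE, adjusted p = 0.652, limma). The other 2 probes, with no such repeat, were not well above background on any array. Itgb2, which encodes the beta chain of the same receptor, had no array well above background either (1.95 to 3.42). The brightest probe of Itgam also did not share the pattern of the other genes among the A+/G+ arrays, which it read within 0.37 of each other. Whether it measured Itgam RNA was not tested.

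**Figure D1:**
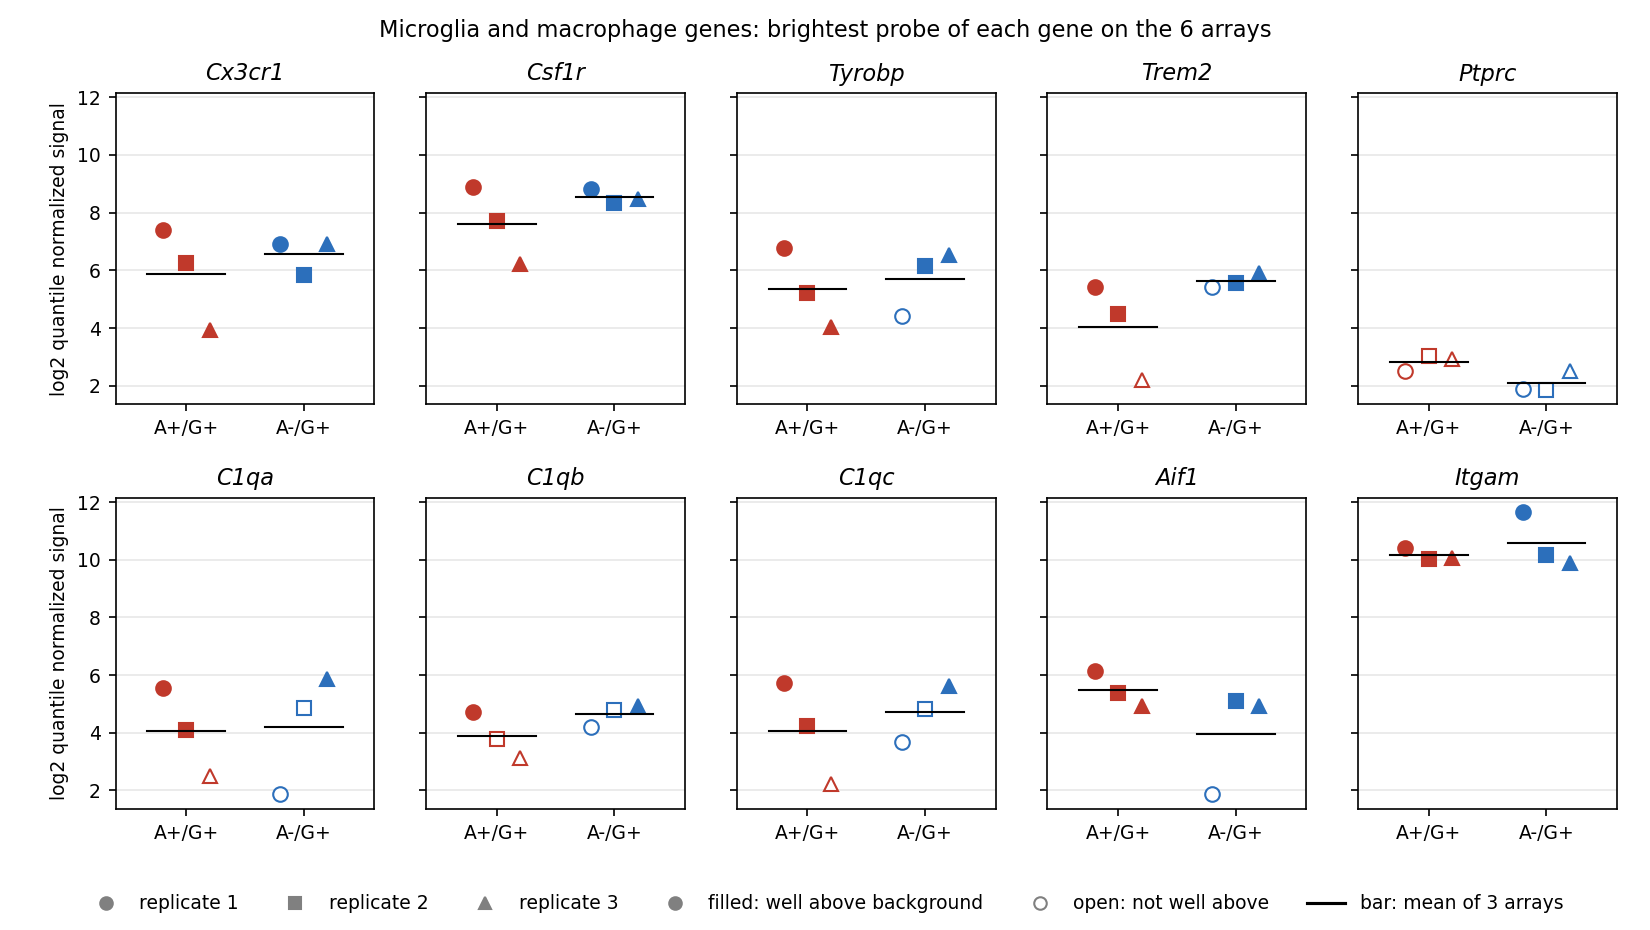
Log2 quantile normalized signal of the brightest probe of each of the 10 genes on the 3 A+/G+ arrays (red) and the 3 A-/G+ arrays (blue); marker shapes give the replicate, filled markers are well above background, open ones are not, and bars are means of 3 arrays. In 8 panels the A+/G+ circle (replicate 1) lies at least 1 above the A+/G+ triangle (replicate 3), while Itgam and Ptprc show no such step.

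Across the 16 probes, 0 passed the limits of the methods in either direction (adjusted p no higher than 0.05, fraction medians 4-fold or more apart). Over all probes, 1.53% passed these limits as higher in A+/G+ and 0.399% as higher in A-/G+. With the adjusted p alone 0 of the 16 passed, against 4.65% and 4.64% of all probes in the 2 directions. At an unadjusted p below 0.05 limma gave 1 probe, that of Ptprc, and the methods' t-test gave 2, with 0 past both limits. The fractions overlapped on 14 of the 16 probes, and besides Ptprc the exception was an Itgam probe with no array well above background, on which every A-/G+ array was higher, as for 24.3% of all probes. The mean was higher in A+/G+ for 2 of the 10 genes, against 39.6% of all genes, and the median difference over the genes was -0.52, against -0.05 over all genes. That median ranged from -1.13 to 0.27 when single arrays were left out. Since 3 arrays were compared with 3, an exact two-sided permutation test on a single gene cannot give a p below 0.1. By their brightest probes, the intervals of 5 of the 10 genes include a 2-fold difference in both directions and those of 7 reach a 4-fold difference, so a difference that did not pass is not shown to be absent. In sorted bulk samples, fewer cells of a type and less RNA per cell cannot be told apart.

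**Figure D2:**
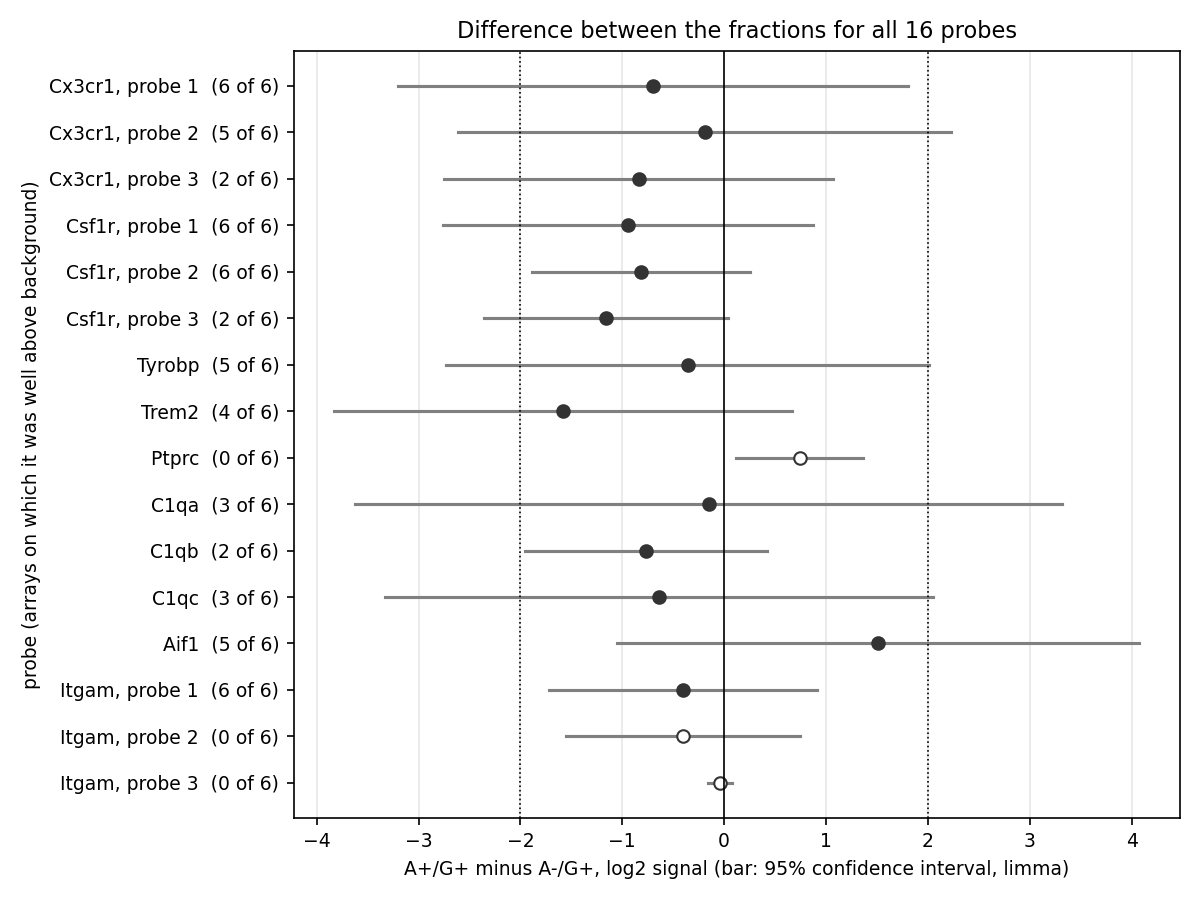
Difference between the fractions (A+/G+ minus A-/G+, log2 signal) with its 95% confidence interval from limma for each of the 16 probes; numbers in parentheses give the arrays of 6 on which a probe was well above background, open points were above it on none, and dotted lines mark a 4-fold difference. Only the interval of Ptprc does not include 0, and its unadjusted p is 0.028.

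The genes shared a pattern within the A+/G+ fraction. This pattern was chosen after the values had been seen and is given as a description with no test. Of the 13 member probes well above background on at least 1 A+/G+ array, 11 were at least 1 (2-fold) higher on replicate 1 than on replicate 3, against 2.44% of the 28191 probes selected in the same way. By brightest probes these were 8 of the 10 genes, against 2.33% of all genes. The same 11 probes stood in the order of replicate 1, then 2, then 3, an order found in 19.8% of the selected probes. The 11 include 2 Cx3cr1 probes that share 55 bases. The dimmest probes of Cx3cr1 and Csf1r, and that of C1qb, entered the selection through replicate 1 alone. On the linear intensity scale, before normalization, Cx3cr1 fell from 283 on replicate 1 to 122 on replicate 2 and 21.6 on replicate 3, a 13.1-fold range on arrays of equal brightness. Csf1r read 786, 353 and 123 in the same order, Tyrobp 183, 56.9 and 23.2, and Aif1 118, 63.2 and 47.2, all well above background. C1qa, C1qc and Trem2 were well above background on replicates 1 and 2 and not on replicate 3, and C1qb was on replicate 1 alone. C1qc, for instance, read 89.3, 27.3 and 4.87.

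The SD among replicates shows the same contrast with the rest of the array. Over the brightest probes of the 10 genes the median SD among the A+/G+ arrays was 1.35, against 0.14 for probes well above background on at least 1 of those arrays. Among the A-/G+ arrays it was 0.79 for the 10 genes and 0.33 for the same set of probes. The A-/G+ spread went with brightness for part of the genes. Aif1, Tyrobp, Trem2, C1qa, C1qb and C1qc were lowest on replicate 1, the dimmest array, and of these all but Aif1 were highest on replicate 3, the brightest, while Csf1r and Itgam were highest on replicate 1. The part of array brightness in the A-/G+ values was not tested.

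Other lists of blood and brain cell genes were read in the same way for their step from A+/G+ replicate 3 to replicate 1. The 9 genes of border macrophages, the macrophages of meninges and vessels, had a median step of 1.29, and 5 of them stepped by at least 1, with F13a1 at 3.95, Lyve1 at 3.55, Pf4 at 3.53, Mrc1 at 2.42 and Folr2 at 1.29. Of 16 pan-myeloid genes 5 did so, namely Ctss at 3.65, Ly86 at 3.25, Mpeg1 at 2.26, Fcer1g at 1.80 and Coro1a at 1.10, but Cd68, a lysosomal protein of macrophages, was at -0.51, and the median of the list was 0.19. Of 12 further microglia genes 3 stepped by at least 1 (median 0.40), of which Fcrls alone, at 1.64, was detected well above background in A+/G+. Of 8 neutrophil genes 4 did so (median 0.95), among them S100a9 at 3.87 and Camp at 2.05. Of 7 erythroid genes 2 did (median 0.85). In the lymphocyte list 1 of 8 genes stepped by at least 1 and in the phagocytic list 2 of 8, with medians of 0.17 and 0.04. No gene did so among 10 astroglial genes (median -0.01), 8 endothelial genes (median -0.40), 9 complement genes other than C1q (median 0.07) and 7 ligands and partners (median 0.07). The values of some, but not most, of the other blood cell genes stepped as those of the 10 genes did, and their part in the spread was not tested.

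**Figure D3:**
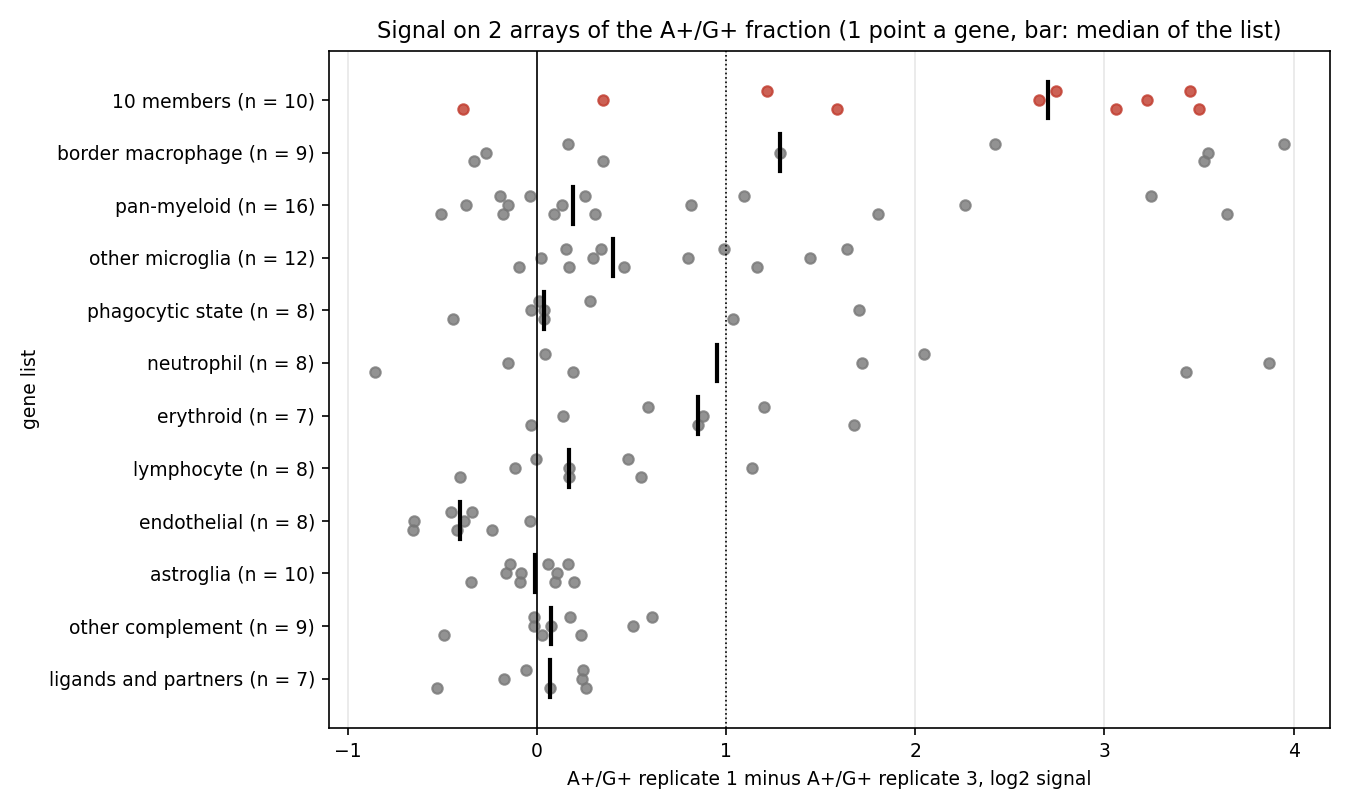
A+/G+ replicate 1 minus A+/G+ replicate 3 on the log2 scale for the brightest probe of each gene, 1 row a gene list, with 1 point a gene and a bar at the median of the list; the dotted line marks a 2-fold step. The 10 genes have a median of 2.70 and the border macrophage list 1.29, while astroglial, endothelial, complement and partner genes lie between -0.66 and 0.61.

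The genes whose profile over the 6 arrays was most like the mean profile of the 10 were found among 18465 genes whose brightest probe was well above background on at least 3 arrays. The mean profile was taken over the 8 of the 10 genes that met the same condition, each set to a mean of 0, which left out C1qb and Ptprc. Itgam was among the 8, read by the probe with the CA repeat, which did not share the A+/G+ pattern. The mean profile stood at 1.01, -0.11 and -1.51 on the A+/G+ arrays and at -0.45, 0.32 and 0.74 on the A-/G+ arrays. The most like was Mpeg1, which encodes a pore-forming protein of macrophages (Pearson r = 0.983, Spearman rho = 1 over 6 arrays), followed by Stk11ip (r = 0.966), Eml4 (r = 0.962), B4galnt1 (r = 0.955) and Gm13157 (r = 0.953). The cathepsin gene Ctss came next (r = 0.953), and Ly86 had rank 10 (r = 0.934), both named after their values were seen. The 6 points share arrays and normalization, and 7 of the genes compared had r of at least 0.95. Mpeg1 itself read 5.97, 4.90 and 3.71 in A+/G+ and 4.36, 5.56 and 5.67 in A-/G+, a difference of -0.34 (adjusted p = 0.787, limma).

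Of 7 ligands and signalling partners of these receptors, 1 passed both limits and 5 the adjusted p by their brightest probes. Il34, which encodes a ligand of the CSF1 receptor, read 9.87, 9.95 and 9.63 in A+/G+ and 7.29, 7.46 and 6.72 in A-/G+. The A+/G+ values all lay above the A-/G+ values, by 2.66 ± 0.22 (SE, adjusted p = 0.0073, limma), and Il34 was the 1 of 7 partner genes that passed both limits, against 1.93% of all genes. Csf1, the other ligand of that receptor, was higher in the A+/G+ cells by 1.25 (adjusted p = 0.0099, limma) with medians 2.20-fold apart by its brightest probe. Its other 2 probes each passed both limits as higher in A+/G+. For 1 of them the difference was 2.26, with 1 A-/G+ array well above background, while the other had no such A-/G+ array. For Cx3cl1, the ligand of CX3CR1, the A+/G+ cells were higher by 1.42 (adjusted p = 0.0257, limma), but the methods' t-test gave an adjusted p of 0.0628. Apoe, a lipid carrier that TREM2 binds, was higher by 2.00 (adjusted p = 0.0043, limma), with medians 3.68-fold apart. Syk, a kinase recruited by TYROBP, was higher in A-/G+, at 6.01, 6.18 and 6.54 against 7.87, 7.69 and 7.62 (difference -1.49, adjusted p = 0.0120, limma). Hcst, an adaptor related to TYROBP, differed by -0.78 (adjusted p = 0.283, limma). By the adjusted p alone, 4 of the 7 partners were higher in A+/G+, against 5.63% of all genes, while 1 was higher in A-/G+, against 4.82%. Il34 passed both limits in each of the 6 fits that left out 1 array (adjusted p of 0.00608 to 0.0428), while Cx3cl1 reached an adjusted p of 0.108, Csf1 of 0.0544 and Syk of 0.0630 in the least favourable of them.

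**Figure D4:**
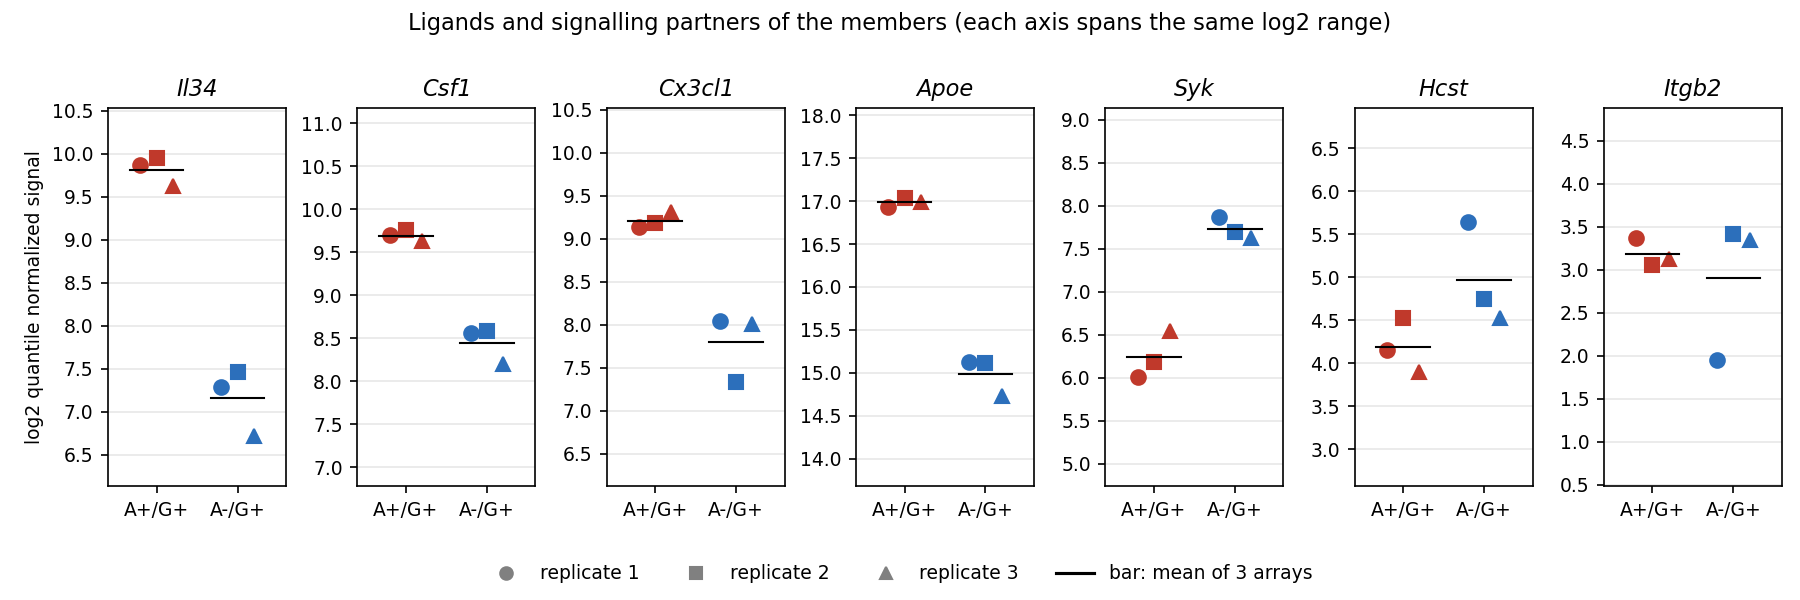
Log2 quantile normalized signal of the brightest probe of 7 ligands and signalling partners on the 3 A+/G+ (red) and 3 A-/G+ (blue) arrays; marker shapes give the replicate, bars are means, and each axis spans the same range around its own centre. Il34, Csf1, Cx3cl1 and Apoe are higher on every A+/G+ array and Syk on every A-/G+ array, while Itgb2 had no array well above background.

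The remaining lists show how the fractions differed around the 10 genes. Over all genes, 1.93% passed both limits as higher in A+/G+ and 0.425% as higher in A-/G+. By the adjusted p alone these shares were 5.63% and 4.82%. Of 12 further microglia genes, Olfml3 passed both limits (8.89, 9.27 and 8.72 in A+/G+ against 7.11, 6.73 and 6.57, a difference of 2.16, adjusted p = 0.0097, limma). Among those past the adjusted p alone was Tmem119, higher in A+/G+ by 1.50. The purine receptor P2ry12, a defining gene of microglia, was well above background on 1 array only, and P2ry13, P2ry6, Gpr34 and Selplg on none. Siglech was read at 12.26 to 13.58 by 1 probe well above background on all 6 arrays, whereas each of its other 2 probes was well above background on 1 array. Of 16 pan-myeloid genes, Cd14 passed both limits, with a difference of 2.41 (adjusted p = 0.0189, limma), and it reached well above background on just 1 A-/G+ array. From A+/G+ replicate 3 to replicate 1, Olfml3, Tmem119 and Cd14 stepped by 0.17, 0.02 and 0.31, whereas most of the 10 genes stepped by at least 1. Whether these signals came from microglia was not tested. The myeloid genes Cd53, Fcgr3 and Spi1 had no array well above background. Of 9 border macrophage genes 0 passed with limma, by both limits, by the adjusted p or at an unadjusted p below 0.05, and 0 with the methods' t-test. Stab1 and Cbr2 differed by 0.90 and -0.96 (adjusted p of 0.481 and 0.312).

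Of 8 genes of phagocytic microglia, Igf1 and Lgals3 passed both limits as higher in A+/G+, against 1.93% of all genes. Igf1 differed by 3.28 (adjusted p = 0.0171, limma) on its brightest probe, which just 1 A-/G+ array had well above background, and by 1.28 with normexp. Of its other 4 probes, 0 passed both limits with limma. Among these 4, 2 had A-/G+ arrays well above background and gave 1.54 and -0.14. Lgals3 differed by 2.46 (adjusted p = 0.0113, limma), whereas Clec7a, Cst7, Gpnmb and Itgax, of the same list, had no array well above background. From A+/G+ replicate 3 to replicate 1, Igf1 and Lgals3 stepped by 0.28 and -0.45, unlike most of the 10 genes. Of 9 complement genes other than C1q, C4b, C2 and C1ra passed both limits as higher in A+/G+, against the same 1.93%. C4b read 10.12, 9.98 and 9.61 in A+/G+ and 7.18, 7.02 and 5.37 in A-/G+, a difference of 3.38 (adjusted p = 0.0282, limma). C2 differed by 2.91 (adjusted p = 0.0245, limma). None of the A-/G+ arrays had C1ra well above background (adjusted p = 0.0153, limma, on the values as normalized). With those arrays set at their lowest detected signal, its A+/G+ mean was 1.68-fold higher. A+/G+ replicates 1 and 3, at 5.56 and 5.39, lay below that signal of A-/G+ replicate 1 (5.64). With normexp the difference of C1ra was 0.69. C3 differed by -0.08, and the complement receptor genes C3ar1 and C5ar1 had no array well above background. The median difference of these 9 genes was 1.56, but 0.72 with normexp and 2.76 or 2.83 with filters on dim probes. In fits that left out 1 array, Cd14, Igf1, C4b, C2 and C1ra lost the call in 4 of 6 by the adjusted p, with the fold limit still met (highest adjusted p of 0.0793, 0.0803, 0.114, 0.105 and 0.0707), Lgals3 in 2 (0.0578), and Olfml3 in 1, without A-/G+ replicate 3, by the fold limit.

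Lymphocytes and neutrophils carry CD45, which was a target of the beads for A-/G+ alone. The lymphocyte list had Cd3e, as 1 of 8 genes, higher in A-/G+ (difference -2.16, adjusted p = 0.0078, limma), against 0.425% of all genes, with Cd3d, Cd3g, Ms4a1 and Cd79a having no array well above background. The Cd3e call was lost by the fold limit without A-/G+ replicate 1. Of 8 neutrophil genes 0 passed by limma or the methods' t-test, and 1, S100a9, had an unadjusted p below 0.05 and was called without A+/G+ replicate 1 (adjusted p = 0.0203, limma). S100a9 read 8.22, 4.88 and 4.35 in A+/G+ and 1.77 to 1.79 in A-/G+, where no array had it well above background (adjusted p = 0.0959, limma). Its A+/G+ mean was 1.93-fold higher with the A-/G+ arrays set at their lowest detected signal. That value rests on A+/G+ replicate 1. A+/G+ replicates 2 and 3 lay below the lowest detected signal of A-/G+ replicates 1 and 2 (5.64 and 4.95). Camp differed by -0.15. Ter119, an erythroid antigen, was a target of the beads for A-/G+ alone. Of 7 erythroid genes 0 passed by limma or the methods' t-test and 4 had an unadjusted p below 0.05 with limma, 3 of them higher in A+/G+, with Hbb-b1 at 2.12 and Hba-a1 at 1.57 (adjusted p of 0.0625 and 0.140). Without A-/G+ replicate 3, however, 3 erythroid genes were called higher in A+/G+, Hbb-b1, Hba-a1 and Alas2 (adjusted p of 0.0198, 0.0469 and 0.0165, limma), and with normexp Hbb-b1 was (0.0190). Of 8 endothelial genes 0 passed both limits by limma or the methods' t-test, with Esam at 3.28 and Tek at 2.22 (adjusted p of 0.249 and 0.342, limma). Cdh5, the 1 gene with an unadjusted p below 0.05, passed the adjusted p alone, and all 8 had a higher mean in A+/G+, against 39.6% of all genes. Without A-/G+ replicate 3, Cldn5, Cdh5 and Kdr were called higher in A+/G+ (adjusted p of 0.0108, 0.0090 and 0.0062, limma), and the median difference of the list went from 1.66 to 2.12, whereas without both dim A-/G+ arrays it was 0.21. Of 10 astroglial genes, which were well above background on all 6 arrays, Gfap passed both limits (difference 3.03, adjusted p = 0.0182, limma), against 1.93% of all genes higher in A+/G+. Summed over each list on the linear scale of normalized signal, the 10 members ranged from 1230 to 2346 in A+/G+ and from 1748 to 3905 in A-/G+, the neutrophil list from 78.3 to 444 and from 60.6 to 158, the erythroid list from 12110 to 19790 and from 10330 to 13320, and the endothelial list from 7815 to 11710 and from 1549 to 8026. Without the Itgam probe the sum of the other 9 members was 992, 442 and 168 on A+/G+ replicates 1, 2 and 3, and 675, 620 and 805 on A-/G+ replicates 1, 2 and 3. The erythroid gene Hemgn was read, like Itgam, by a probe with a dinucleotide repeat, and without it the sum of the other 6 genes ranged from 8830 to 16170 in A+/G+ and from 2573 to 7839 in A-/G+, with no overlap. The ranges of the members, the neutrophil list and the endothelial list overlapped. Among the lists whose sums are not printed here, the partner, phagocytic and complement sums were higher on every A+/G+ array. The lymphocyte sum was higher on every A-/G+ array. These sums follow the brightest genes and do not describe every gene of a list. The partner sum was mostly Apoe, with a mean of 16.99 in A+/G+ against 9.82 for Il34. In the lymphocyte list Cd3e had a mean of 8.54 in A-/G+ against 5.29 for Nkg7. Hba-a1 and Lgals3 were likewise the brightest genes of the erythroid list without Hemgn and of the phagocytic list.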

How the data were processed

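RNA of magnetically sorted cells (3 A+/G+ and 3 A-/G+ samples) was hybridized by the authors to 1-color Agilent mouse arrays. The deposited files hold the background-corrected intensity of each spot from Agilent Feature Extraction 10.7.3.1, per the file headers, and a table of log2 values that the authors quantile normalized, which was used as an alternative. No filter on dim probes was applied.

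Here log2 intensities without control and outlier spots were quantile normalized across the arrays, and spots of 1 probe were averaged. Quantile normalization gives dim arrays the range of bright ones, so low values on the dim A-/G+ arrays carry more error. All 55681 probes were compared with limma 3.58.1 in R 4.3.3, without a block. A probe was called at a Benjamini-Hochberg adjusted p of at most 0.05 with medians at least 4-fold apart, the limits of the study's methods. A gene was read by its brightest probe (the highest mean over 6 arrays), and a probe was well above background on an array where a share of at least 0.5 of its spots had the flag. Precision is limited by the number of arrays, and p-values measure the spread between pooled preparations. The scripts were tested on simulated data.

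All 10 members were described with every probe. From each further list (partners, further microglia, pan-myeloid, border macrophage, phagocytic, complement, lymphocyte, neutrophil, erythroid, endothelial, astroglia) the genes past both limits were named, or else the 2 with the largest difference among those well above background on all arrays of a fraction, and the 5 genes most like the members. Other names were added after their values were seen. Some list genes are counted but not reported by name here. The members and lists were chosen with earlier results of these data known. Alternatives were the authors' table, a 75th percentile shift, normexp with an offset of 50, keeping outlier spots, a 2-fold limit, robust limma with a trend, the methods' t-test, filters on dim probes, the replicate number as a block and single arrays left out. Leaving out the 2 dimmer A-/G+ arrays was added after seeing the data. The slide could not be fitted as a block.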

Additional observations from a re-analysis of the deposited data

How the results depend on the processing

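The count of 0 member probes past both limits, in either direction, held in every fit but 1. With the 75th percentile shift 1 probe passed both limits, and 1 the adjusted p alone, as higher in A-/G+: an Itgam probe not well above background on any array (-1.91, adjusted p = 0.0364, limma). That shift moved the median difference of all probes to -1.02, and the calls over all probes from 851 and 222 to 604 and 938. When single arrays were left out the counts past both limits ranged from 0 to 0 in both directions, and those past the adjusted p alone from 0 to 1 for higher in A+/G+ and 0 to 0 for higher in A-/G+, the 1 being Ptprc without A-/G+ replicate 3 (adjusted p = 0.0408, limma). Over all probes normexp gave 234 and 48 calls, the methods' t-test 487 and 121, and fits without 1 array 340 to 1458 and 77 to 490.

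The sign of a difference turned for Cx3cr1 probe 2 with normexp (0.087), Ptprc with the 75th percentile shift (-0.48) and Itgam probe 1 without both dim A-/G+ arrays (0.28). Leaving out single arrays gave -1.47 to 0.26 for Cx3cr1 probe 1, -0.998 to 0.65 for Cx3cr1 probe 2, -0.74 to 0.14 and -0.65 to 0.076 for Itgam probes 1 and 2, -1.08 to 0.30 for Tyrobp, -1.32 to 0.68 for C1qa and -1.47 to 0.27 for C1qc. The cause of these turns was not tested. The signals near background on the dim arrays limit what can be read for C1qa, C1qb, C1qc and Trem2.

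With the replicate number as a block, 0 member probes were called, and 0 of all probes against 851 and 222. Same-numbered arrays correlated in their deviations from the fraction means at 0.09, 0.06 and 0.01, too little to pair them, and A+/G+ replicate 3 correlated better with another number.

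Among the further genes, the calls of Olfml3, Cd14, Igf1, C1ra and Cd3e ended with normexp, those of Cd14, C4b, C2 and Gfap with the methods' t-test, and those of Cd14, Lgals3 and Cd3e without both dim A-/G+ arrays. Gfap also lost its call in 4 of the 6 fits without 1 array (highest adjusted p = 0.0836, limma). Il34 lost its call with the block alone.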
